A study of Mus musculus with 6 samples.

Results

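The genes described here are 10 that act in glucose uptake and glycolysis: the glucose transporters Slc2a1 and Slc2a3, the hexokinases Hk1 and Hk2, the phosphofructokinase subunits Pfkl, Pfkm and Pfkp, the regulatory enzyme Pfkfb3, the aldolase Aldoc and the pyruvate dehydrogenase kinase Pdk1. They were taken by name, as the array rows (probe sets) annotated with that symbol alone, and all 10 had such a row, among 19946 genes with a row of their own. Their 11 rows lie among 23410 rows with at least 1 annotated gene, since Hk1 has 2 and every other member 1. The study measured messenger RNA on 6 Affymetrix arrays of A3-1, a mouse embryonic stem (ES) cell line kept in medium with 20% serum and LIF, a cytokine that holds mouse ES cells undifferentiated. It has 3 groups of 2 arrays each: untreated cells; siGFP cells, which received a control duplex (siRNA, small interfering RNA) aimed at green fluorescent protein; and siLin28a cells, given an siRNA against Lin28a, whose RNA-binding product keeps let-7 microRNA precursors from being processed. Both siRNAs were left for 48 h, each siRNA group received 1 siRNA duplex, and the untreated cells are given no siRNA sequence in the labels, which describe no mock delivery. The labels do not say whether replicates were grown as separate cultures, and if they were not, the p-values describe technical spread alone.

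Glycolysis turns glucose into pyruvate and yields ATP without oxygen. Glucose enters through carriers of the Slc2a family, is trapped by hexokinase as its phosphate, and is committed to breakdown by phosphofructokinase. Pyruvate dehydrogenase kinases inhibit pyruvate dehydrogenase, which acts on pyruvate inside the mitochondria. Mouse ES cells run glycolysis at a high rate even with oxygen present, and several of these genes are induced by hypoxia-inducible factors. These factors bind a short DNA motif whose core can read ACGTG. LIN28A and let-7 have been linked to glucose metabolism in other tissues.

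The siRNA and the regions around the start sites of 5 members are shown because the comparisons rest on the former, and the latter belong to members whose untreated arrays lay below at least 1 siRNA group without overlap. Slc2a3 is a sixth such member, with no window in the table used. The strands of the siLin28a duplex, without their deoxythymidine overhangs, are given as listed in the labels, and the capitals mark bases 2 to 8 of the strand complementary to the other, which is the seed if that strand guides silencing.
First strand: gcagaagcgaagauccaaa
Second strand: uUUGGAUCuucgcuucugc
The promoter windows, from RefSeq on GRCm38.p6, run from 250 bases before to 50 after a start site, and the capitals mark ACGTG or its reverse complement CACGT. Of the 4 Pfkm and 2 Aldoc windows only 1 each is printed, with a match; of those left out, 2 of Pfkm and 1 of Aldoc hold no match and 1 of Pfkm holds 1.
Pfkfb3, upstream start, chr2:11553880-11554179, minus strand: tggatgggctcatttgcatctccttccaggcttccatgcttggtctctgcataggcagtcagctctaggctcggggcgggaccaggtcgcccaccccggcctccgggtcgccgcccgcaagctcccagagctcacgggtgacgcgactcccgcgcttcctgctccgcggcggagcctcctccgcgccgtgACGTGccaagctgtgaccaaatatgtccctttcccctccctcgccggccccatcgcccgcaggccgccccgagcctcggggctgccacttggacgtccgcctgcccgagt
Pfkfb3, downstream start, chr2:11502041-11502340, minus strand: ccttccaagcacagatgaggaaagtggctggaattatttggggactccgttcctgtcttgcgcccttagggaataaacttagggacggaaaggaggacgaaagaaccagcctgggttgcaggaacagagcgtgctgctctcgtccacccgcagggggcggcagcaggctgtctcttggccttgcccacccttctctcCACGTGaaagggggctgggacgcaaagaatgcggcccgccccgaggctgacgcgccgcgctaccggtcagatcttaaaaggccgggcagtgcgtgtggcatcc
Slc2a1, chr4:119108495-119108794, plus strand: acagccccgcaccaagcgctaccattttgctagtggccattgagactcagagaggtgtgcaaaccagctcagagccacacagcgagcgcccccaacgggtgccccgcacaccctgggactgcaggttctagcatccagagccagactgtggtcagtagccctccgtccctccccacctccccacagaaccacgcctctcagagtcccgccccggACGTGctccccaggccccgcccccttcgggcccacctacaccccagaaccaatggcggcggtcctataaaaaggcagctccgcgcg
Pfkm, most upstream start, chr15:98092339-98092638, plus strand: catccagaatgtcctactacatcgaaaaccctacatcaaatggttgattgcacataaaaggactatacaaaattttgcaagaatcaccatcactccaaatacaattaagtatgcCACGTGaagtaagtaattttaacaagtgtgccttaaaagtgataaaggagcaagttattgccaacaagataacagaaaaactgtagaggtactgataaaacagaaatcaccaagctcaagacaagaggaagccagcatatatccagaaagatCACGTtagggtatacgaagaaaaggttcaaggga
Aldoc, upstream start, chr11:78322823-78323122, plus strand: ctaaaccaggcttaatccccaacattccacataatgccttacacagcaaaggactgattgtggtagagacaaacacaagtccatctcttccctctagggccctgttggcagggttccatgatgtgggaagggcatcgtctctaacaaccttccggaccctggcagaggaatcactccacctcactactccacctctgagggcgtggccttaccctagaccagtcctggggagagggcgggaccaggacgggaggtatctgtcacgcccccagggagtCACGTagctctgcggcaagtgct
Pfkl, chr10:78009758-78010057, minus strand: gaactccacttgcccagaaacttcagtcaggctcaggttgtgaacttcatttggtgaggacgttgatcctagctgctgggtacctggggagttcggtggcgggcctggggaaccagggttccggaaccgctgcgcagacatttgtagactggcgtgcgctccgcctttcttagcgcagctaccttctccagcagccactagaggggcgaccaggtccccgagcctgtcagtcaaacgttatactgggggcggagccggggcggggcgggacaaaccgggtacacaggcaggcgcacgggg
The first match lies 60 and 53 bases before the start in the Pfkfb3 windows, 36 before it in Slc2a1 and 136 before it in Pfkm. In Aldoc the match lies after the start, and the Pfkl window holds no ACGTG on either strand. RefSeq windows were found for 9 of the 10 members, 16 windows in all. ACGTG on either strand was in 8 of the 16 windows, of 6 genes (Pfkfb3, Slc2a1, Hk2, Hk1, Aldoc and Pfkm), and in 19.6% of all 32851 windows of 300 bases. The palindrome CACGTG, which contains ACGTG on each strand, was in 2 of the 16 and in 7.15% of all. Several windows belong to 1 gene and can overlap, and a match is only a match of letters. Other forms of the motif's core were not searched, so a window without a match may hold one.

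Values are log2 expression as deposited, in steps of 0.1, so a difference of 0.1 between arrays is a single step. Differences between groups were tested with limma on all 6 arrays. Of the 23410 rows, 0 passed an adjusted p of 0.05 in any of the 3 comparisons, which is 0% in each, and so no member passed. Without adjustment, p was under 0.05 for 2 of the 10 members as higher values in siGFP against untreated (2.19% of all rows higher, 1.33% lower), for 1 as a lower value in siLin28a against siGFP (2.26% lower, 1.79% higher) and for 1 as a higher value in siLin28a against untreated (2.89% higher, 3.55% lower). The values below are therefore given with their intervals and with the arrays' overlap, and none of the differences is a call. Levels of different rows depend on their probes and are not compared with each other. On bulk RNA, fewer cells of a type and less RNA per cell cannot be told apart.

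**Figure D1:**
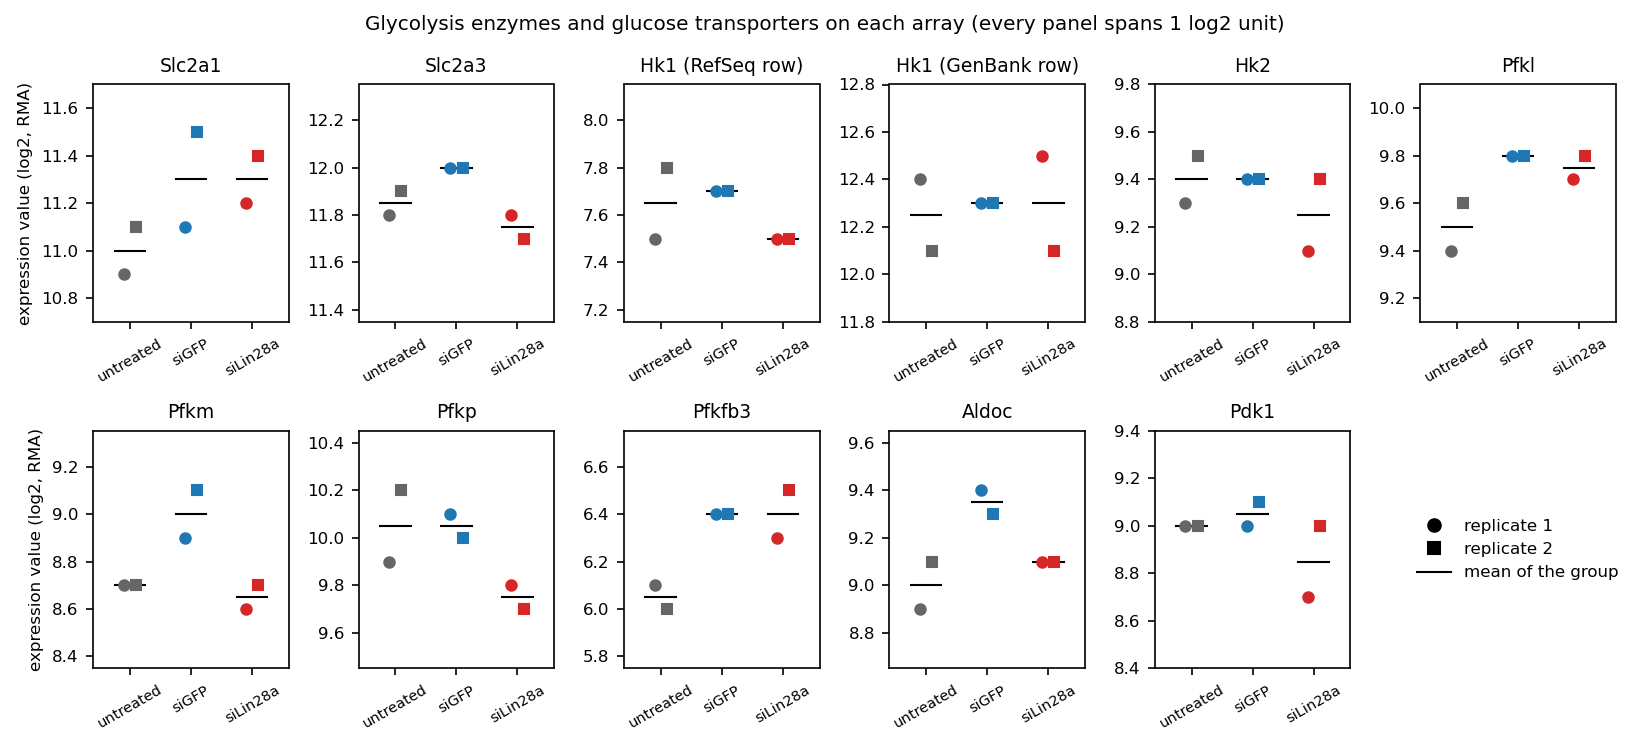
Expression of each member on each array, as deposited log2 values (y axis, each panel spanning 1 log2 unit) by group (x axis); circles are replicate 1, squares replicate 2, and bars the mean of the group. The siGFP mean is the highest, or level with the highest, in all 11 panels.

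The control siRNA arrays sat high for most of the genes. In siGFP replicate 2 all 10 members, and in siGFP replicate 1 all but 1 of them, were above their own mean over the 6 arrays. In untreated replicate 1 and 2, 8 and 6 of the 10 were below it. In siLin28a replicate 1 and 2, 6 and 5 members were below it, so these arrays were not set apart from the untreated ones by this count. Over all rows with a mean of at least 8, the median deviation was −0.03 and 0.08 on siGFP replicate 1 and 2. It was 0.00 and 0.05 on untreated replicate 1 and 2, and −0.13 and 0.02 on siLin28a replicate 1 and 2. The part of these array shifts in the counts was not tested.

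Slc2a1 encodes GLUT1, the carrier of basal glucose uptake in most cells. Untreated cells had values of 10.9 and 11.1, siGFP cells 11.1 and 11.5, and siLin28a cells 11.2 and 11.4. The siLin28a arrays were both above the untreated ones, while siGFP replicate 1 was level with untreated replicate 2. Against untreated cells the log2 fold change was 0.30 with either siRNA (SE 0.18, 95% interval −0.13 to 0.73, n = 2 per group), with a limma adjusted p of 0.961 for siGFP and 0.816 for siLin28a. For siGFP it was 0.10 without siGFP replicate 2 and 0.50 without siGFP replicate 1. Between the siRNA groups it was 0.00 with an interval of −0.43 to 0.43, which is wide enough to hold a difference of the size seen against untreated cells.

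Slc2a3 encodes GLUT3, a high-affinity carrier abundant in neurons and in early embryos. Its value was 11.8 and 11.9 in untreated cells, 12.0 on each siGFP array, and 11.8 and 11.7 with siLin28a. Both siGFP arrays were above all the others, with a log2 fold change of 0.15 against untreated (SE 0.12, interval −0.13 to 0.43) and of −0.25 for siLin28a against siGFP (interval −0.53 to 0.03). Thus the transporters had different orders of groups: siLin28a was level with siGFP for Slc2a1 and below it for Slc2a3, a difference between genes that was not tested.

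Hexokinase phosphorylates glucose on entry, and both isoforms listed here can dock on the outer mitochondrial membrane. Hk2, the isoform that hypoxia and insulin induce in many tissues, was at 9.3 and 9.5 in untreated cells, 9.4 on each siGFP array, and 9.1 and 9.4 with siLin28a. The groups overlapped in every comparison, with a log2 fold change of 0.00 for siGFP against untreated (interval −0.36 to 0.36) and −0.15 for siLin28a against siGFP (SE 0.15, interval −0.51 to 0.21). The latter was 0.00 without siLin28a replicate 1 and −0.30 without replicate 2.

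Hk1, the isoform of most tissues, has 2 rows, which differed in their pattern over the arrays. The row annotated with RefSeq transcripts of Hk1 was at 7.5 and 7.8 in untreated cells, 7.7 on each siGFP array and 7.5 on each siLin28a array. On it the siLin28a arrays were below the siGFP arrays without overlap, with a log2 fold change of −0.20 (SE 0.14, interval −0.54 to 0.14). The brighter row is annotated through 1 GenBank record alone. It was at 12.4 and 12.1 in untreated cells, 12.3 on each siGFP array, and 12.5 and 12.1 with siLin28a, a log2 fold change of 0.00 (interval −0.43 to 0.43).

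That GenBank record is also among those of the RefSeq row. It is listed as well for 16 further rows that name Hk1 together with Rpl17, a ribosomal protein gene, with values between 10.5 and 12.6. In all 16 of them the lowest array was untreated replicate 2 and siLin28a replicate 1 was above replicate 2. The brighter Hk1 row had both features, its lowest value being tied with siLin28a replicate 2, and the RefSeq row had neither. Relative to its own mean, the brighter row stayed within 0.15 of the mean of those 16 rows on every array, and the RefSeq row departed from it by up to 0.35. Which transcripts the brighter row measures was not tested. Because the rule takes the brightest row of a gene, counts over the members use that row unless the RefSeq row is named.

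**Figure D2:**
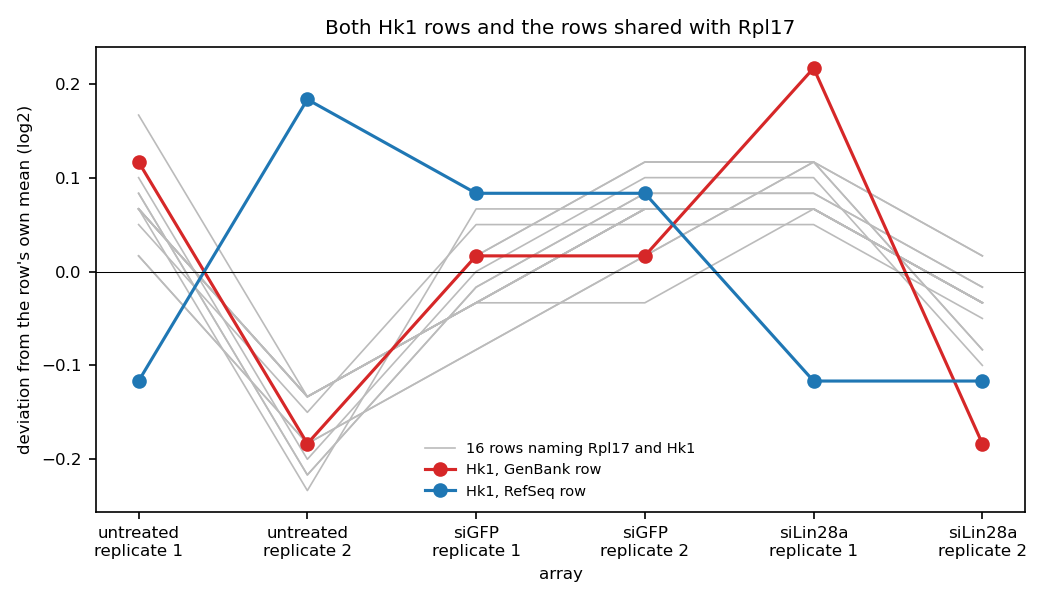
Deviation of each row from its own mean over 6 arrays (y axis, log2) on each array (x axis); grey lines are the 16 rows naming Rpl17 and Hk1, red the Hk1 row with 1 GenBank record, blue the Hk1 row with RefSeq transcripts, and lines only join the values of a row. The red row dips with the grey rows in untreated replicate 2, where the blue row has its highest value of 7.8.

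Phosphofructokinase is a tetramer of liver, muscle and platelet type subunits, and catalyses the committed step of glycolysis. Its 3 genes had 3 different orders of groups, and the differences between these genes were not tested. Pfkl, the liver type, was at 9.4 and 9.6 in untreated cells, 9.8 on each siGFP array, and 9.7 and 9.8 with siLin28a. All siRNA arrays were above both untreated arrays, by a log2 fold change of 0.30 with siGFP (SE 0.13, interval −0.01 to 0.61, limma adjusted p 0.961) and 0.25 with siLin28a (interval −0.06 to 0.56, limma adjusted p 0.783). The latter was 0.15 without untreated replicate 1.

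Pfkm, the muscle type, was at 8.7 on each untreated array, 8.9 and 9.1 with siGFP, and 8.6 and 8.7 with siLin28a. The siGFP arrays stood above both other groups, with a log2 fold change of 0.30 for siGFP against untreated (interval −0.01 to 0.61). For siLin28a against siGFP it was −0.35 (SE 0.13, interval −0.66 to −0.04), a 1.27-fold lower level, with an unadjusted p of 0.0308 and a limma adjusted p of 0.953. Between siLin28a and untreated cells it was −0.05 (interval −0.36 to 0.26), which became 0.05 after a further quantile normalization.

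Pfkp, the platelet type, was at 9.9 and 10.2 in untreated cells, 10.1 and 10 with siGFP, and 9.8 and 9.7 with siLin28a. Here the siLin28a arrays were below all the others and the untreated and siGFP arrays overlapped. The log2 fold change of siLin28a was −0.30 against siGFP and also −0.30 against untreated cells (SE 0.14, interval −0.65 to 0.05 in each), with limma adjusted p-values of 0.953 and 0.783. These comparisons share the siLin28a arrays. Against untreated cells it was −0.15 without untreated replicate 2 and −0.45 without untreated replicate 1.

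Pfkfb3 makes the bisphosphate that activates phosphofructokinase, and is induced by hypoxia and growth factors. Its row was at 6.1 and 6.0 in untreated cells, 6.4 on each siGFP array, and 6.3 and 6.5 with siLin28a. Every siRNA array was above both untreated arrays, as for Pfkl. The log2 fold change against untreated cells was 0.35 with each siRNA (SE 0.13, interval 0.04 to 0.66), a 1.27-fold higher level, with an unadjusted p of 0.0308 in each and limma adjusted p-values of 0.961 for siGFP and 0.705 for siLin28a. It was 0.00 between the siRNA groups (interval −0.31 to 0.31).

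Aldoc encodes the brain type of aldolase, which splits the sugar bisphosphate. It was at 8.9 and 9.1 in untreated cells, 9.4 and 9.3 with siGFP, and 9.1 on each siLin28a array. The siGFP arrays were above both other groups, as for Pfkm and Slc2a3. Its log2 fold change was 0.35 for siGFP against untreated (SE 0.13, interval 0.04 to 0.66, unadjusted p 0.0308, limma adjusted p 0.961) and −0.25 for siLin28a against siGFP (interval −0.56 to 0.06).

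Pdk1 phosphorylates and so inhibits pyruvate dehydrogenase. It was at 9.0 on each untreated array, 9.0 and 9.1 with siGFP, and 8.7 and 9.0 with siLin28a. Only siLin28a replicate 1 stood below the other arrays, and the groups overlapped. Its log2 fold change was −0.20 for siLin28a against siGFP (SE 0.14, interval −0.54 to 0.14) and 0.05 for siGFP against untreated (interval −0.29 to 0.39). Without siLin28a replicate 1 the former was −0.05 and without replicate 2 it was −0.35; without siGFP replicate 1 or 2 the latter was 0.10 or 0.00.

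**Figure D3:**
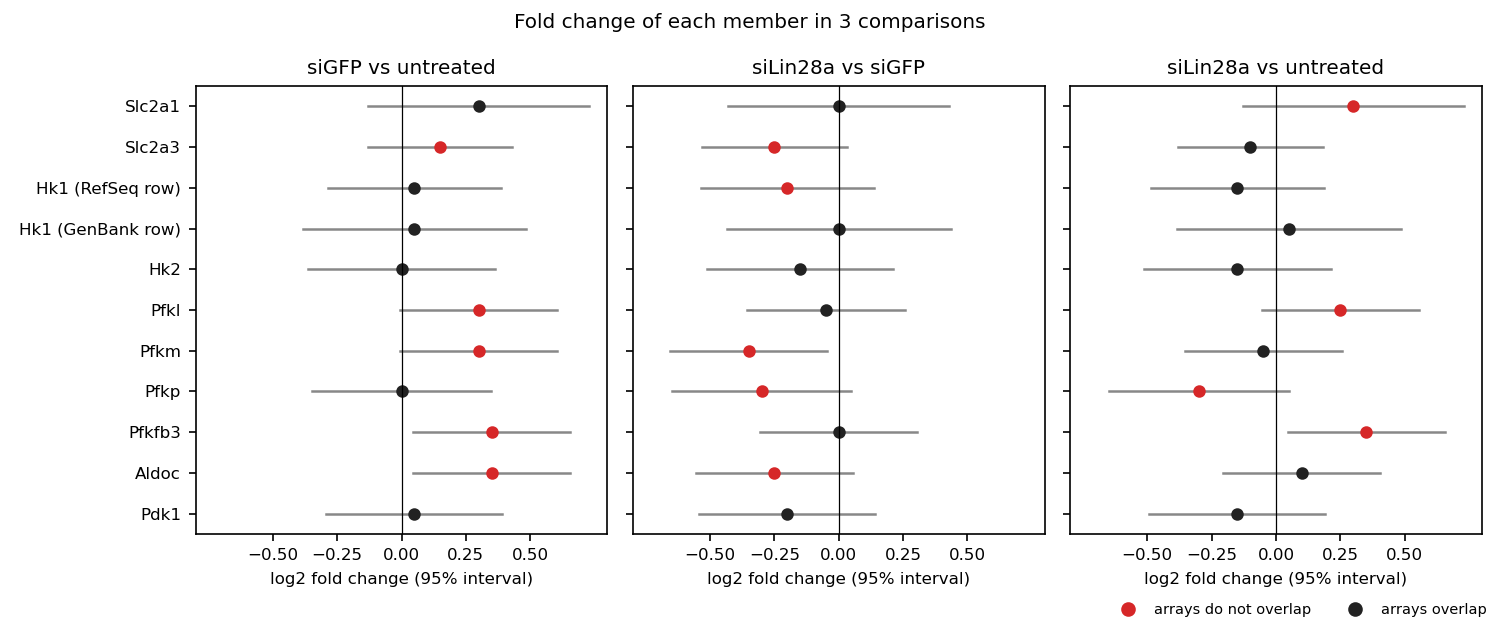
Log2 fold change (x axis) of each member row (y axis) in 3 comparisons, with limma's 95% interval as a line; red points mark rows whose arrays do not overlap between the groups, black points those that overlap. Intervals leave out 0 for Pfkfb3 and Aldoc in siGFP against untreated, Pfkm in siLin28a against siGFP and Pfkfb3 in siLin28a against untreated.

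The comparison of siGFP with untreated cells asks what goes with delivery of a control siRNA. Of the 10 members 8 were higher, 0 lower and 2 equal, and the median log2 fold change was 0.225, against 0.00 over all 23410 rows. In 5 of them, Pfkl, Pfkm, Pfkfb3, Aldoc and Slc2a3, both siGFP arrays were above both untreated arrays, where 9.22% of all rows were, and no member was lower without overlap (8.46% of all rows). The members were chosen with earlier results of these data known, so this count is a description. The median was 0.125 without siGFP replicate 2, and the number without overlap was 8 without untreated replicate 2. With fewer arrays more rows do not overlap, and the number over all rows rose from 2159 to 6724 when that array was left out.

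The comparison of siLin28a with siGFP asks what goes with less Lin28a among cells that all received an siRNA. These groups also differ in the sequence of their siRNA, which cannot be told apart from less Lin28a here. Of the 10 members 7 were lower, 0 higher and 3 equal, with a median of −0.175. Pfkm, Pfkp, Aldoc and Slc2a3 were lower without overlap, 4 of 10 where 11.8% of all rows were, or 5 of 10 with the RefSeq row of Hk1; none was higher without overlap (9.03% of all rows). Bright rows as a whole were lower on the siLin28a arrays. The median was −0.05 over the 5930 rows with a mean from 6 to 8. It was also −0.05 over the 1275 rows with a mean of 10 or more. Over the 3337 rows with a mean from 8 to 10 it was −0.10. After cyclic loess, which left a median of −0.013 over those rows, the members' median was −0.088, with 6 lower and 4 higher, and 3 lower without overlap, as were 3685 of the 23410 rows on that scale. The part of the shift of bright rows in the members' values was not tested beyond this. The number lower without overlap was 8 when siLin28a replicate 2 was left out, and over all rows it rose from 2758 to 7640. This comparison shares the siGFP arrays with the one before, so a high siGFP array gives a higher value in that one and a lower value here.

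In siLin28a against untreated cells the members had no common direction. With a median of 0.00, 5 were higher and 5 lower. Pfkl, Pfkfb3 and Slc2a1 were higher without overlap (3 of 10, all rows 11.1%) and Pfkp was lower (1 of 10, all rows 12.6%), which are counts of 1 to 3 genes. The lower number was 4 without siLin28a replicate 2, 3 without untreated replicate 1 and 2 without siLin28a replicate 1, where 7206, 7714 and 5251 of the 23410 rows were lower without overlap. After a further quantile normalization 6 were higher and 4 lower. Without overlap 3 were then higher and 0 lower, as were 4393 and 2932 of the 23410 rows. After cyclic loess 6 were higher and 4 lower, with 4 higher and 0 lower without overlap (4538 and 3868 rows). As deposited, all rows with a mean from 8 to 10 had a median of −0.10 in this comparison. With the RefSeq row of Hk1 the members' median was −0.075 as deposited.

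No difference between the members and the related lists was tested, and the lists are given by their own values. Of 23 other glycolytic enzymes listed, 18 had a row of their own, and none of them passed in any comparison. Their median was 0.075 in siGFP against untreated, with 11 higher and 6 lower, and 0.025 in siLin28a against siGFP, with 9 higher and 5 lower. The latter split depended on the scaling, with 4 higher and 9 lower once array medians were made equal (median −0.025), 15 and 2 after a further quantile normalization and 14 and 4 after cyclic loess. In siLin28a against untreated the median was 0.05, with 12 higher and 4 lower, where the members' median was 0.00. Enolase Eno3, the muscle type, was at 6.8 and 7.0 in untreated cells, 6.4 and 6.5 with siGFP, and 6.8 and 7.0 with siLin28a. Its log2 fold change was −0.45 in siGFP against untreated (SE 0.14) and 0.45 in siLin28a against siGFP, opposite in direction to Pfkm. Bpgm, which makes the bisphosphoglycerate of red cells, and the sperm enzyme Gapdhs each had −0.35 in siGFP against untreated. The muscle mutase Pgam2 had −0.25 in siLin28a against siGFP, with overlapping arrays. Against untreated cells siLin28a gave −0.30 for Bpgm and 0.25 for the hexokinase-like Hkdc1. The rows of Gapdhs and Hkdc1 were dim, with no value above 4.4 and 4.9, where array medians over all rows were 5.2 or 5.3.

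Other sugar carriers and the monocarboxylate transporters, which carry lactate, numbered 16, and 0 passed. Their median was 0.025 in siGFP against untreated and 0.05 in siLin28a against siGFP (0.00 once array medians were made equal). Slc16a3 encodes MCT4, a lactate exporter of glycolytic cells, and was at 9.2 and 9.0 in untreated cells, 9.4 and 9.2 with siGFP, and 9.6 on each siLin28a array. Its siLin28a arrays were above all the others, with a log2 fold change of 0.50 against untreated cells (SE 0.14, interval 0.17 to 0.83, limma adjusted p 0.643) and 0.30 against siGFP. The fructose carrier Slc2a5 had −0.45 in siGFP against untreated and 0.30 in siLin28a against siGFP, and the urate carrier Slc2a9 −0.35 and 0.40. In siLin28a against siGFP Slc2a12 had −0.30, with overlapping arrays. The sodium-coupled carrier Slc5a1 had 0.35 with each siRNA against untreated cells, and the inositol carrier Slc2a13 had 0.35 with siLin28a. The highest values of Slc2a9, Slc2a12, Slc5a1 and Slc2a13 were 5.2, 4.7, 5.0 and 4.9. These rows were dim, as array medians over all rows were 5.2 or 5.3.

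Genes of fructose bisphosphate control, of the mitochondrial pyruvate carrier, and of pyruvate dehydrogenase with its regulators were mostly lower with siLin28a. Of 16 measured, 14 were lower, 1 higher and 1 equal in siLin28a against siGFP, with a median of −0.20 and 8 without overlap, where 11.8% of all rows were lower without overlap. After cyclic loess the median was −0.18. Against untreated cells 15 of the 16 were lower, with a median of −0.175, and 8 were lower without overlap (12.6% of all rows). After cyclic loess that median was −0.14. All rows with a mean from 8 to 10 had a median of −0.10 in siLin28a against siGFP and against untreated, as deposited. In siGFP against untreated the median of the listed genes was 0.00. None of these genes passed. Pfkfb2, a relative of Pfkfb3, had −0.35 against siGFP and −0.45 against untreated cells (SE 0.13, limma adjusted p 0.643), and Pfkfb3 had 0.00 and 0.35. Pdk4, a relative of Pdk1, had −0.45 against siGFP and 0.30 in siGFP against untreated. Tigar, which breaks down the phosphofructokinase activator, had −0.35 against siGFP, with overlapping arrays. The dehydrogenase subunit Dld had −0.55 in siLin28a against untreated and −0.25 in siGFP against untreated (SE 0.27). Its arrays overlapped in each. Dld was at 9.2 and 8.4 in untreated cells, 8.5 and 8.6 with siGFP, and 8.1 and 8.4 with siLin28a.

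The pentose phosphate pathway, which branches off after hexokinase, had 7 measured genes of 8. Rpe, an epimerase of that pathway, was at 9.5 and 9.6 in untreated cells, 9.4 on each siGFP array and 8.9 on each siLin28a array. The siLin28a arrays were below all the others by at least 0.5. Its log2 fold change was −0.50 against siGFP (SE 0.11, interval −0.77 to −0.23, unadjusted p 0.00398, limma adjusted p 0.953) and −0.65 against untreated cells (limma adjusted p 0.535). Pgls, Rpia, Taldo1 and Tkt had −0.15 each against siGFP, and the transketolase-like Tktl1 had 0.15 there, 0.15 in siGFP against untreated and 0.30 in siLin28a against untreated. Rpe had −0.15 in siGFP against untreated.

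Genes induced by hypoxia outside glycolysis were listed with the hypoxia-inducible factors and their regulators. Of the 25 symbols listed, 24 had a row of their own, Ero1a among them and Ero1l not. In siGFP against untreated 13 were higher, 6 lower and 5 equal, with a median of 0.05 and 8 higher without overlap, where 9.22% of all rows were. Ddit4, an inhibitor of mTOR signalling that other stresses induce too, was at 7.1 and 7.0 in untreated cells, 8.2 and 7.7 with siGFP, and 8.2 and 8.0 with siLin28a. The transcription factor Bhlhe40 was at 6.1 and 5.8, 7.1 and 6.6, and 7.0 on each siLin28a array. Each of them had a log2 fold change of 0.90 for siGFP and 1.05 for siLin28a against untreated cells (SE 0.19 and 0.20). Like Pfkfb3 and Pfkl, both were above the untreated arrays on all siRNA arrays. In siLin28a against siGFP the median of the list was −0.025, and 0.04 after cyclic loess. The angiogenic factor Vegfa had −0.50 there, the hormone Adm 0.45 and the carbonic anhydrase Car9 0.45. Car9 was dim, with no value above 4.2, where array medians over all rows were 5.2 or 5.3.

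**Figure D4:**
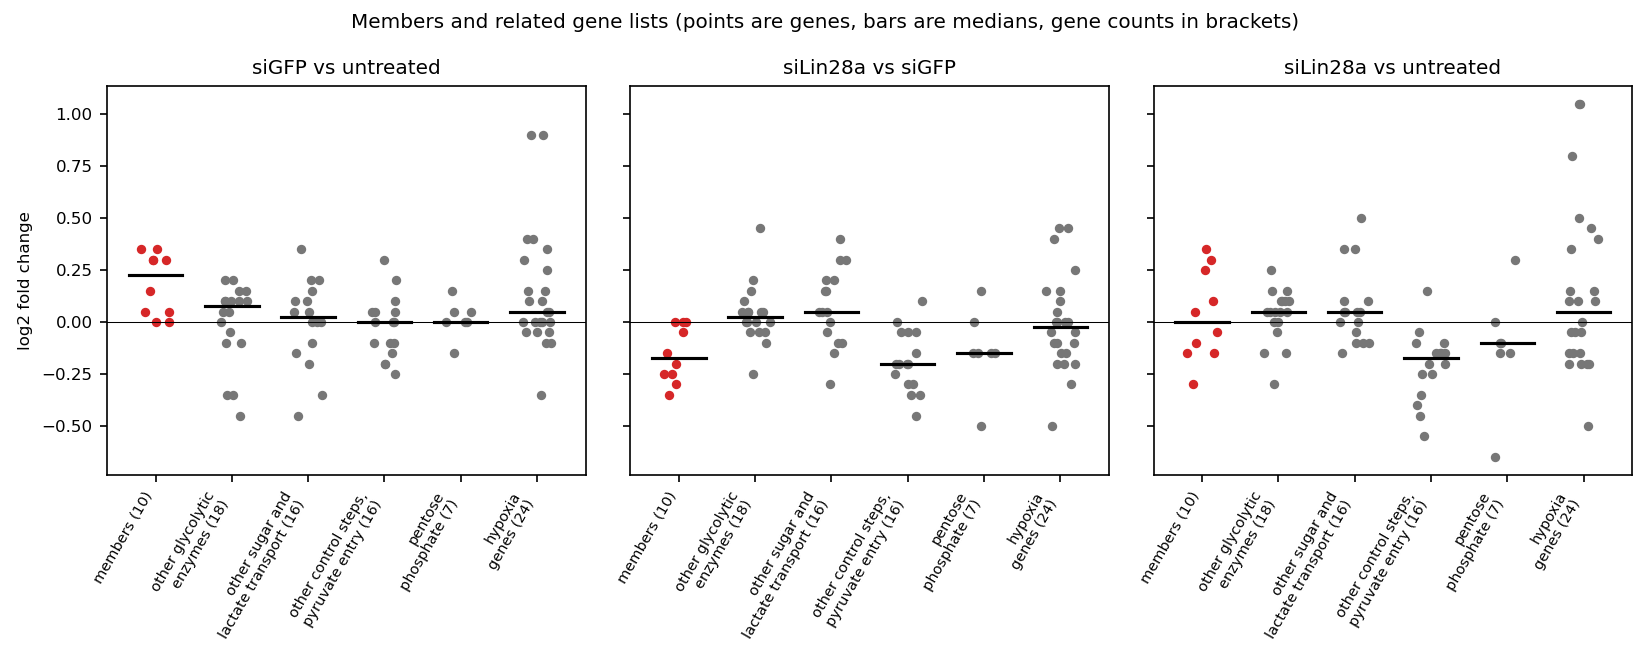
Log2 fold change (y axis) of each gene in the members and in 5 related lists (x axis, number of genes in brackets) in 3 comparisons; points are genes, with random sideways spread, and bars are medians. The members' bar is at 0.225 in siGFP against untreated and at −0.175 in siLin28a against siGFP. In the latter the bar of the other control steps and pyruvate entry is at −0.20. That label includes pyruvate dehydrogenase and its regulators.

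The genes whose pattern over the 6 arrays was most like the mean of the members were Klhl2, an adaptor of a ubiquitin ligase (Pearson r 0.99), Mfge8, a secreted glycoprotein (0.98), the tight junction protein Cldn4 (0.97), the esterase-like Iah1 (0.94) and Castor1, an arginine sensor (0.94). They come from 2756 candidate genes, and with 6 arrays in 3 groups a high r arises easily, so it is a description with no test. Klhl2 was at 7.0 and 7.1 in untreated cells, 7.4 and 7.5 with siGFP, and 7.0 and 7.2 with siLin28a. It was chosen for its likeness to the members, so its high siGFP arrays are no separate observation. With the RefSeq row of Hk1, Klhl2, Mfge8 and Iah1 were again among the 5, with Sh3pxd2a and B4galt1.

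As a check of the labels, Lin28a was at 9.1 and 9.4 in untreated and in siGFP cells and at 7.4 on each siLin28a array, a log2 fold change of −1.85 against siGFP (SE 0.16, n = 2 per group, limma adjusted p 0.512). All 11 ES cell markers were at 7.8 or above on every array, with a mean between 10.1 and 10.7. All 11 were lower in siLin28a than in siGFP, with a median log2 fold change of −0.30. That median was −0.22 after cyclic loess and −0.18 after a further quantile normalization, with all 11 lower in each. The 12 fibroblast markers, read for feeder cells, had a mean between 4.98 and 5.17 and none above 7.1. In siLin28a against siGFP 9 of them were higher and 1 lower, with a median of 0.075. Of the 12, 4 were higher without overlap, where 9.03% of all rows were. The 12868 rows with a mean under 6 had a median of 0.05 in that comparison. The 8 primitive endoderm markers had a mean between 4.90 and 4.99 and none above 6.0. Array medians over all rows were 5.2 or 5.3. The part of these marker differences in the members' values was not tested.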

How the data were processed

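Messenger RNA was measured on 6 Affymetrix arrays of A3-1 cells, from 300 ng of total RNA each, per the labels' protocols. The authors used Affymetrix Expression Console with RMA (background correction, quantile normalization and probe set summary), per the submitters' processing notes. No version or genome build was found in those notes. Deposited values are taken as log2 by their range, from 0.2 to 13.7, all in steps of 0.1; they hold no detection call, and the number of arrays limits the precision.

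Rows were named from the platform annotation; all 10 members matched RefSeq by Entrez number. Of 35556 rows, 23410 name a gene and were tested with limma 3.58.1 in R 4.3.3 (3 groups, eBayes without trend, two-sided, Benjamini-Hochberg, threshold 0.05, 3 residual and 3.19 prior degrees of freedom, no filter), checked on simulated data. An exact permutation test of 2 against 2 arrays cannot go below 0.333, so none is given. A gene is represented by its brightest row with 1 symbol. Named are all members, the 2 genes of each list that differ most in log2 value in each comparison (with ties), Lin28a, and the 5 genes most like the members' mean (SD at least 0.2, mean at least 6). Members and lists were chosen with earlier results of these data known. Alternatives were a replicate block, other scalings, filters, priors and row rules, and leaving out each array. Listed symbols that share every row with another gene, or have no named row, were left out.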

Additional observations from a re-analysis of the deposited data

How the results depend on the processing

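The number of rows passing was 0 in each comparison, and stayed 0 without any 1 array, with the replicate block, with a trend, with the 4 arrays compared alone, with dim rows left out, with a shift to the same median and with a further quantile normalization. It was 1 in siLin28a against siGFP with cyclic loess and with a robust prior, and 5 and 7 in siLin28a against untreated; no member was among these. The members' median in siLin28a against siGFP (−0.175) was −0.225 with arrays shifted to the same median, −0.12 after a further quantile normalization, −0.088 after cyclic loess, −0.20 with the RefSeq row of Hk1, a choice made after seeing the data, and between −0.225 and −0.125 without 1 array. In siGFP against untreated (0.225) it was 0.275 with the shift and between 0.125 and 0.25 without 1 array. In siLin28a against untreated (0.00) it was 0.05 after quantile normalization, 0.076 after cyclic loess, −0.05 with all rows of a gene averaged, −0.075 with the RefSeq row of Hk1, and between −0.05 and 0.025 without 1 array. Directions turned for Pfkl in siLin28a against siGFP (0.025 after quantile normalization, 0.035 after loess) and for Pfkm in siLin28a against untreated (0.05 and 0.045). They turned for Hk1 in siLin28a against untreated with the mean of its rows (−0.05) or its RefSeq row (−0.15). Without 1 array Hk1 lay between −0.15 and 0.25 there and between −0.10 and 0.20 in siGFP against untreated. The cause of these turns was not tested. Over 23410 rows, the difference of replicate 1 and 2 correlated between groups at 0.36 (siGFP and siLin28a), 0.15 (siGFP and untreated) and −0.04 (siLin28a and untreated). These values do not settle whether same-numbered arrays are paired, least of all for siGFP and siLin28a. The main test took no pairing. The replicate block gave 0 passing rows and left the medians at −0.175, 0.225 and 0.00 by construction.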
